A study of Homo sapiens with 4 samples.

Results

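Immune checkpoint ligands are surface or secreted proteins through which tumour and myeloid cells restrain T cells, natural killer cells and macrophages. The genes described here are CD274, PDCD1LG2, CD276, VTCN1, HHLA2, CD47, LGALS9, PVR and TNFRSF14. They are 9 of 59533 genes analysed, chosen by symbol as known checkpoint ligands, with earlier results of these data known, and all 9 were found with values in all 4 libraries. Gene expression was measured by RNA sequencing of mRNA libraries from human tumour lines, the breast carcinoma line HCC1937 and the monocytic leukaemia line THP-1. All cells, untreated ones included, had been infected to express the same mutant protein, in lines labelled as lacking the normal gene. HCC1937 was given decitabine (DAC), a cytidine analogue that blocks DNA methylation, at 0.3 µM for 5 days, and THP-1 was given 5 µM for 2 days. Each line has 1 untreated library and 1 DAC library. The labels do not say whether the infected cells were a clone or a pool, and no library without the mutant was analysed here.

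Many checkpoint ligands belong to the B7 family of immunoglobulin-like proteins. CD274 (PD-L1) and PDCD1LG2 (PD-L2) bind the receptor PD-1 on activated T cells and dampen signalling from the antigen receptor, and interferon gamma is a well-known inducer of CD274 through JAK and STAT proteins and IRF1. Tumour cells of epithelial origin and myeloid cells both use these ligands, and antibodies against the PD-1 pathway and against several of the other ligands have been developed for cancer treatment. Decitabine becomes incorporated into DNA and traps the enzymes that methylate cytosine at CG dinucleotides, so methylation is lost as cells divide. The comparison addresses how the ligand genes stood in these lines with and without that treatment.

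DNA sequence before the start of CD274 and VTCN1 is shown because these genes had the highest DAC to untreated ratios among the ligands that reached 1 FPKM in HCC1937, and because DAC acts on CG dinucleotides. FPKM scale a gene's fragments to its length and to the reads counted in the library. The sequences are from RefSeq (GRCh38.p14), run 5′ to 3′ on the strand of the gene, end at the base before the first exon in GENCODE 29, and carry CG in capitals. The CD274 stretch is chr9:5450292-5450502, plus strand, 211 bases with 9 CG. The VTCN1 stretch is chr1:117210961-117211177, minus strand, 217 bases with 5 CG.
CD274: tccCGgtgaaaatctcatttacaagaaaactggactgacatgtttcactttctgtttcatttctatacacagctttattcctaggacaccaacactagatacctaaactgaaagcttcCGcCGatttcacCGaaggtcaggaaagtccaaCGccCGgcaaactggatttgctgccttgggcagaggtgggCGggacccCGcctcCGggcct
VTCN1: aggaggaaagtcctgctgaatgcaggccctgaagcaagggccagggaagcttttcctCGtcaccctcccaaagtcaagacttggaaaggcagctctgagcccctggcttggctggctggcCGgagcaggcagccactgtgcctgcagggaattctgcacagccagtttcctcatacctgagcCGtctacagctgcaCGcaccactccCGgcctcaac

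The ligand genes differ widely in CG content around their starts. RefSeq start windows of 300 bases (250 before the start and 50 after) were matched by symbol for 8 of the 9 genes, in 11 windows, with none for PDCD1LG2. CD47 had 45 CG, more than 96.5% of 35116 human start windows, and CD276 had 37 and 28 in its 2 windows. PVR had 27, CD274 22, TNFRSF14 12 and VTCN1 7. LGALS9 had 2, and the 3 windows of HHLA2 had 2, 4 and 0. Across all start windows, 36.8% had fewer CG than VTCN1 and 62.3% had fewer than CD274. Methylation itself was not measured. LGALS9 and HHLA2, the genes with the fewest CG, differed widely in level in THP-1, as given below. Whether CG content went with level was not tested.

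The same windows were searched on both strands for TTCNNNGAA, a STAT core, for the core of the interferon-stimulated response element (GAAA, any 2 bases, GAAA) and for the NF-kB motif. CD274 held TTCACCGAA, a match to the first, from 125 to 117 bases before its RefSeq start. That start, base 5450542, lies 39 bases after the GENCODE 29 start at which the printed sequence ends, so the match is 86 to 78 bases before the latter. It also held TTTCACTTTC (208 to 199 bases before the RefSeq start) and TTTCTGTTTC (202 to 193 bases before it), which overlap each other and match the second motif on the other strand. CD274 was the only 1 of the 8 matched ligand genes with the STAT core, which 7.66% of all start windows hold. The response element core is in 3.57% of windows, and it was also found in 1 HHLA2 window and in that of LGALS9. The NF-kB motif (11.3% of windows) was found in the window of TNFRSF14, as 3 overlapping matches, and in 1 of CD276. A match describes these letters and not binding.

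The libraries carried the markers of the lines they are labelled as. All 10 epithelial markers listed reached 1 FPKM in both HCC1937 libraries and 2 to 3 did in THP-1. All 10 monocytic markers reached it in both THP-1 libraries and 1 to 3 did in HCC1937. The spacing of the values gives a depth of 18.7 M counted reads for each HCC1937 library, 19.5 M for untreated THP-1 and 19.7 M for THP-1 with DAC. Each group is 1 library, so replicate spread is unknown and no p-value is given. Intervals below are exact 95% intervals that cover counting error only, from reads estimated with GENCODE 29 exon lengths, and those for THP-1 are approximate because its columns may rest on other lengths. In such bulk libraries, fewer cells that use a gene and less RNA per cell cannot be told apart.

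In HCC1937, VTCN1 and CD274 stood higher in the DAC library and CD276 lower, by the ratio of their FPKM. In THP-1 the 5 ligand genes that reached 1 FPKM had ratios of 0.955 to 1.32, and the other 4 were below 1 FPKM. VTCN1, a B7 family inhibitor also known as B7-H4, went from 0.9 FPKM untreated to 4.06 with DAC in HCC1937, which is 4.51-fold (interval 3.31 to 6.23). CD274 went from 2.72 to 5.78 FPKM, 2.13-fold (interval 1.80 to 2.52). CD276, the B7 family member B7-H3, went from 40.08 to 20.07 FPKM, a ratio of 0.501 (interval 0.475 to 0.528). The size rule keeps genes with at least 1 FPKM in 1 library of the pair and calls those that differ 2-fold or more on the log2(FPKM + 1) scale. By that rule 1 of 8 kept ligand genes, VTCN1, was called higher in HCC1937, against 10.3% of all 14058 kept genes, and 0 were called lower, against 1.44%. In THP-1, 0 of 5 kept ligand genes were called higher, against 1.14% of 12075 kept genes, and 0 lower, against 0.364%. VTCN1 and TNFRSF14 reached 1 FPKM in HCC1937 only with DAC, so the count of 1 is no support for a gain among the ligands.

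**Figure D1:**
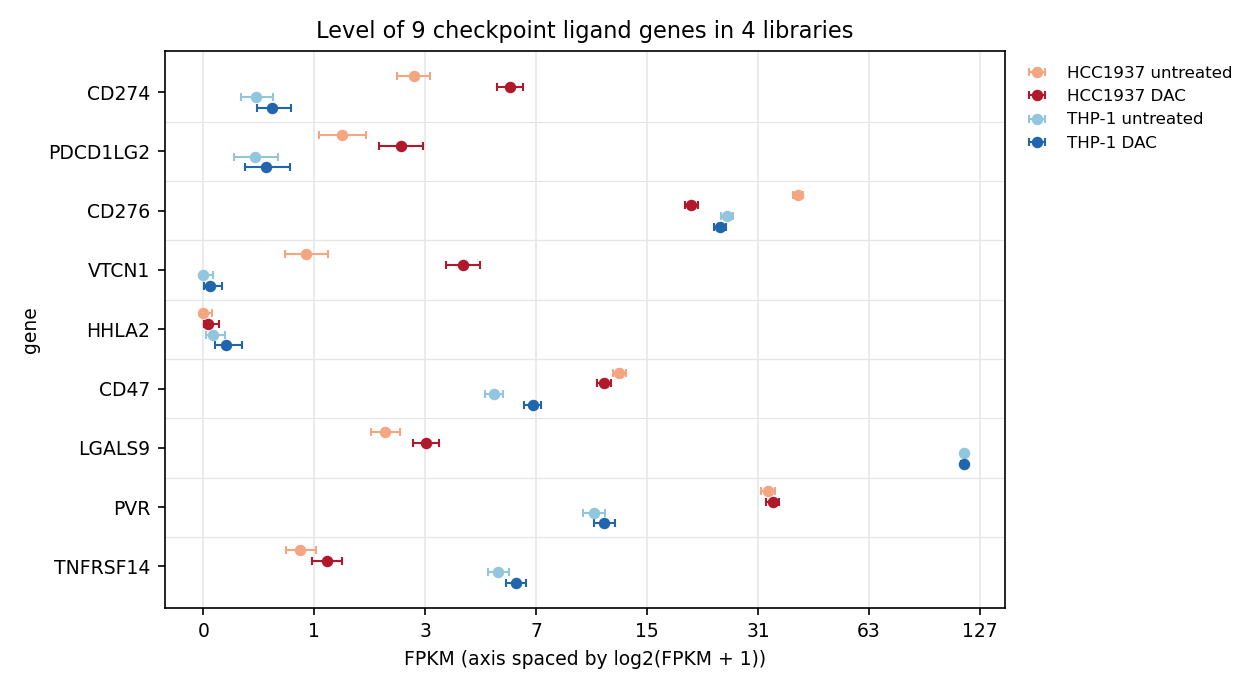
Level of each of the 9 ligand genes (rows) in the 4 libraries, in FPKM on an axis spaced by log2(FPKM + 1), with exact 95% Poisson intervals of the estimated reads as bars. LGALS9 is at 115.06 and 114.67 FPKM in THP-1 and at 2.12 and 3.02 in HCC1937, and CD276 is at 40.08 FPKM untreated and 20.07 with DAC in HCC1937.

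The PD-1 ligands lie side by side on chromosome 9. CD274 (ENSG00000120217.13, hg38 chromosome 9, 5450503 to 5470566, plus strand) ends 40003 bases before the start of PDCD1LG2 (ENSG00000197646.7, 5510570 to 5571254, plus strand). Both were at low to moderate levels in HCC1937 and below 1 FPKM in all THP-1 libraries. PDCD1LG2 stood at 1.38 FPKM untreated and 2.44 with DAC in HCC1937, 1.77-fold (interval 1.28 to 2.46) on 61 and 108 reads. The interval of each ratio lies above 1 and the intervals of the 2 ratios overlap. On log2(FPKM + 1) the difference was 0.87 for CD274 and 0.53 for PDCD1LG2, and 12.6% and 24.5% of kept genes had a larger one. The CD274 value sits on either side of 2-fold with the scale. It was called at a pseudocount of 0.1 (log2 1.06) and as a plain ratio, and not with FPKM + 1, nor by median of ratios (log2 0.70) or upper-quartile scaling (log2 0.62). In THP-1, CD274 was at 0.39 FPKM untreated and 0.54 with DAC, a ratio of 1.38 (interval 0.867 to 2.30) on 31 and 44 reads. PDCD1LG2 there was at 0.38 and 0.48 FPKM, a ratio of 1.26 (interval 0.649 to 2.57). Both intervals include 1, so a difference of either gene in THP-1 was not resolved. The intervals reach 2.30 and 2.57, so a gain up to about that size may be hidden at this depth.

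Genes around this pair on chromosome 9 give a local comparison. Of 11 listed neighbours, which include JAK2, the kinase of the interferon gamma receptor, 7 were kept in HCC1937 and 0 were called in either direction, with a median log2 difference of -0.03. In THP-1, 6 were kept and 0 called, with a median of 0.12. Over all kept genes, 10.3% were called higher and 1.44% lower in HCC1937 (median 0.19), and 1.14% and 0.364% in THP-1 (median 0.07). JAK2 itself was at 1 and 0.96 FPKM in HCC1937 and at 6.2 and 8.16 FPKM in THP-1 (log2 0.35). The largest differences among the 7 kept neighbours in HCC1937 were KIAA2026 (2.18 and 3.19 FPKM) and RIC1 (2.95 and 4.11 FPKM), at log2 0.40 and 0.37, both smaller than that of CD274. ERMP1 (26.64 and 21.3 FPKM) and PLGRKT (15.22 and 12.4 FPKM) followed at log2 -0.31 and -0.28. The difference between CD274 and its neighbours has no test with 1 library per group.

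The other B7 family members spanned the range from undetected to the highest ligand level in HCC1937. CD276 (ENSG00000103855.17, chromosome 15, 73683966 to 73714518, plus strand) inhibits T cells in many settings, though its receptor is not firmly established. It rested on 4155 reads untreated and 2082 with DAC in HCC1937. Its log2 difference of -0.96 stands at the lower edge of all genes, with 1.56% of kept genes below it, and just short of the 2-fold rule. It passed that rule by median of ratios (log2 -1.17) and upper-quartile scaling (log2 -1.26). In THP-1 it stood at 25.35 FPKM untreated and 24.21 with DAC, a ratio of 0.955 whose interval of 0.905 to 1.01 includes 1. CD276 was the ligand with the highest level in untreated HCC1937 and the second highest, after PVR, in the DAC library.

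VTCN1 (ENSG00000134258.16, chromosome 1, 117143587 to 117210960, minus strand) inhibits T cell activation and is known from breast and ovarian cancers. Its HCC1937 values rest on 51 reads untreated and 230 with DAC. The log2 difference was 1.41, and 4.82% of kept genes had a larger one. It kept its call by median of ratios (log2 1.28) and upper-quartile scaling (log2 1.21) and lost it with a pseudocount of 10 (log2 0.37) or a filter of 5 FPKM, which it did not reach. In THP-1, VTCN1 was listed at 0 in the untreated library and at 0.04 FPKM with DAC, about 2 reads. Both are below the level that 3 reads would give, 0.0509 and 0.0504 FPKM, so no ratio is given.

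HHLA2 (ENSG00000114455.13, chromosome 3, 108296490 to 108378285, plus strand) can costimulate T cells through TMIGD2 and inhibit T and natural killer cells through KIR3DL3. It was near the floor of detection in every library. In HCC1937 it was listed at 0 in the untreated library and at 0.03 FPKM with DAC, both under the 0.0442 FPKM that 3 reads would give. In THP-1 it was at 0.06 and 0.15 FPKM, on about 4 and 11 reads, with a ratio of 2.5 whose interval of 0.807 to 11.7 includes 1. Its receptors TMIGD2 and KIR3DL3 were at 0 FPKM in all libraries, except TMIGD2 at 0.04 in the THP-1 DAC library.

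**Figure D2:**
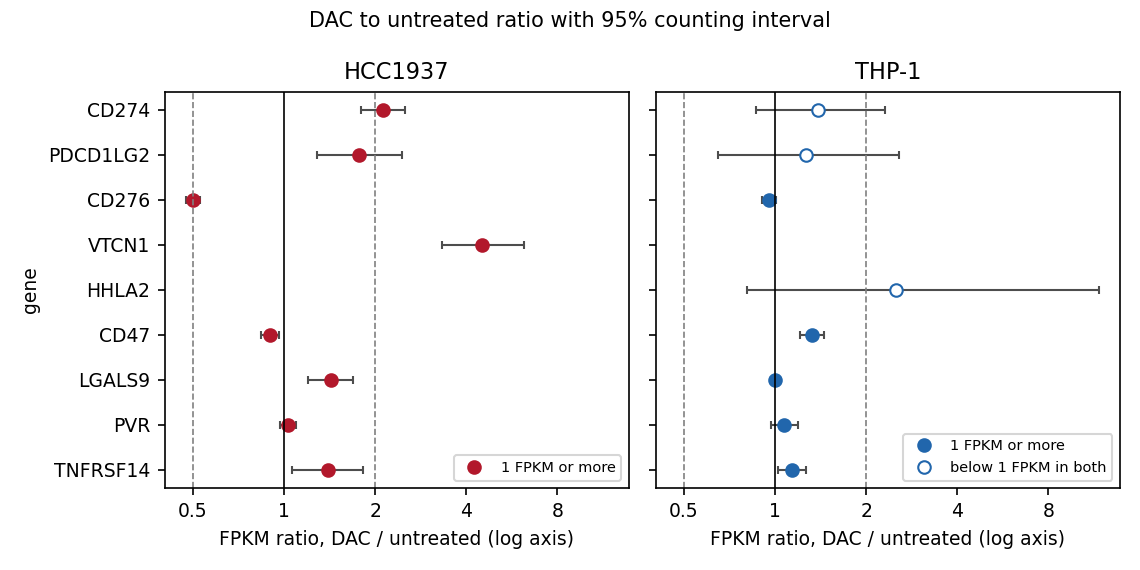
Ratio of FPKM with DAC to FPKM untreated (log axis) for each ligand gene with reads in both libraries of a line, with the exact 95% counting interval; dashed lines mark 2-fold and open circles genes below 1 FPKM in both libraries. In HCC1937 the interval of VTCN1 (3.31 to 6.23) lies wholly above 2-fold, and in THP-1 the interval of CD47 (1.21 to 1.45) lies above 1.

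CD47, PVR and TNFRSF14 were expressed in both lines with small differences between treated and untreated libraries. CD47 (ENSG00000196776.15, chromosome 3, 108043094 to 108091862, minus strand) binds SIRPA on macrophages and inhibits phagocytosis. In HCC1937 it was at 12.45 FPKM untreated and 11.19 with DAC, a ratio of 0.899 (interval 0.841 to 0.959). In THP-1 it was at 5.15 and 6.82 FPKM, a ratio of 1.32 (interval 1.21 to 1.45). The THP-1 value, log2 0.35, was the largest difference among the 5 kept ligand genes there, and 9.47% of kept genes had a larger one. The THP-1 direction of CD47 held under both scalings, which lower every ratio and so could not turn the HCC1937 one. SIRPA, its receptor, was at 7.44 and 8.5 FPKM in HCC1937 and at 30.53 and 31.18 FPKM in THP-1.

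PVR (CD155; ENSG00000073008.14, chromosome 19, 44643798 to 44663583, plus strand) inhibits T and natural killer cells through TIGIT and activates them through CD226. It stood at 33.05 FPKM untreated and 34.05 with DAC in HCC1937, a ratio of 1.03 (interval 0.970 to 1.09), and at 10.49 and 11.26 FPKM in THP-1, a ratio of 1.07 (interval 0.969 to 1.19). Both intervals include 1, and the HCC1937 difference of log2 0.04 became -0.17 by median of ratios and -0.26 by upper quartile. TNFRSF14 (HVEM; ENSG00000157873.17, chromosome 1, 2555639 to 2565382, plus strand) inhibits through BTLA and CD160 and receives signals from TNFSF14. It was at 0.83 and 1.16 FPKM in HCC1937, a ratio of 1.40 (interval 1.06 to 1.82) on 97 and 135 reads. In THP-1 it was at 5.32 and 6.05 FPKM, a ratio of 1.14 (interval 1.02 to 1.26).

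LGALS9 (ENSG00000168961.16, chromosome 17, 27629798 to 27649560, plus strand) encodes galectin-9, a sugar-binding protein that engages HAVCR2 (TIM-3) on T cells and myeloid cells. It was the ligand with the highest level in THP-1, at 115.06 FPKM untreated and 114.67 with DAC, a ratio of 0.997 (interval 0.972 to 1.02). In HCC1937 it was at 2.12 and 3.02 FPKM, a ratio of 1.42 (interval 1.20 to 1.69). It made up 70.9% of the summed FPKM of the 9 genes in untreated THP-1 and 2.27% in untreated HCC1937. LGALS9B and LGALS9C are close copies, so reads may be split among them. They were at 0 to 0.54 FPKM in all libraries, and the 0.54 is LGALS9B in untreated HCC1937.

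Within a library the order of the ligands is set apart only where the counting intervals do. In untreated HCC1937 it ran CD276, PVR, CD47, CD274, LGALS9, PDCD1LG2, VTCN1, TNFRSF14 and HHLA2. There the intervals of CD274 and LGALS9 overlapped, as did those of PDCD1LG2 and VTCN1 and those of VTCN1 and TNFRSF14. With DAC, PVR stood first and CD276 second, VTCN1 moved ahead of LGALS9, and the intervals of LGALS9 and PDCD1LG2 were the overlapping neighbours. In THP-1 the order untreated was LGALS9, CD276, PVR, TNFRSF14, CD47, CD274, PDCD1LG2, HHLA2 and VTCN1. With DAC CD47 and TNFRSF14 changed places, with overlapping intervals in both libraries. CD274 and PDCD1LG2 also overlapped there, and so did HHLA2 and VTCN1. Levels between the lines are compared only roughly, since the columns may rest on different gene lengths.

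**Figure D3:**
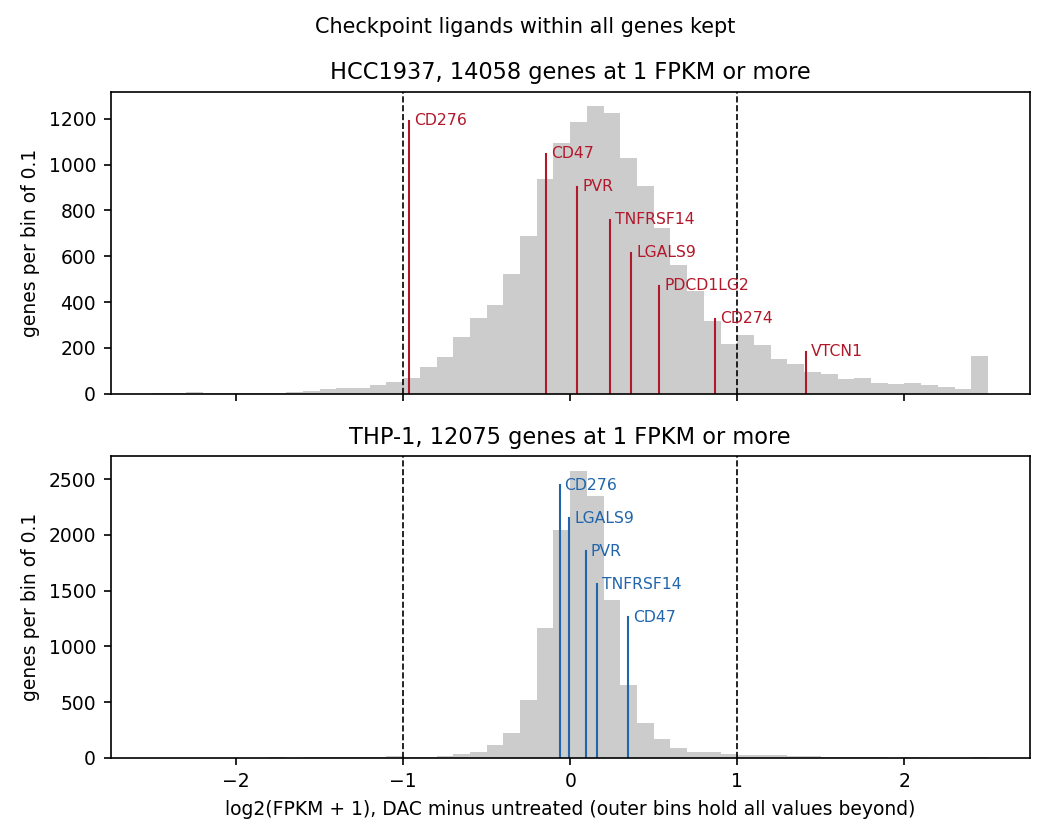
Histogram of the log2(FPKM + 1) difference, DAC minus untreated, of all kept genes in each line (bins of 0.1, values beyond the axis in the outer bins), with the kept ligand genes as coloured lines and 2-fold as dashed lines. In HCC1937 CD276 (-0.96) and VTCN1 (1.41) lie in the tails, and in THP-1 all 5 lie between -0.06 and 0.35.

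The ligands were spread over the distribution of all genes. In HCC1937 the median log2 difference of the 8 kept ligand genes was 0.30, and that of all kept genes was 0.19. VTCN1 and TNFRSF14 passed the filter there only through the DAC library, so this median is no support for a gain among the ligands. In THP-1 the 5 kept ligand genes had a median of 0.09 and all kept genes 0.07. Counting intervals of the ratio lay above 1 for 5 ligands and below 1 for 2 in HCC1937, and above 1 for 2 and below 1 for 0 in THP-1. The share of all kept genes with such intervals was not computed, so these counts are no support for a gain. Of all kept genes, 66.2% in HCC1937 and 65.0% in THP-1 had a log2 difference above 0. Of all called genes in HCC1937, 87.8% were higher as deposited, 76.0% under median-of-ratios scaling and 68.6% under upper-quartile scaling. These scalings divide the DAC to untreated ratio by 1.16 and 1.24, so small gains of the ligands in HCC1937 are to be read against that shift. The within-line differences of the 2 lines are given side by side and not compared, since dose and time differ.

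Receptors and other binding partners of the ligands were mostly at or near 0. The list also holds LTA and TNFSF14, which are ligands of TNFRSF14, and CD80, also listed among the costimulatory ligands. Of 14 listed, 3 were kept in HCC1937 and 2 in THP-1. In HCC1937 1 of the 3 was called higher and 0 lower, against 10.3% and 1.44% of all kept genes. The gene called was LTA, a cytokine that also binds TNFRSF14, at 0.37 FPKM untreated and 2.77 with DAC (7.49-fold, interval 4.09 to 15.0). LTA reached 1 FPKM only with DAC, and so did SIRPG (0.93 and 1.43 FPKM). In THP-1 0 of 2 were called, against 1.14% higher and 0.364% lower of all kept genes, with TNFSF14 at 4.25 and 4.08 FPKM. PDCD1, the receptor PD-1 itself, was at 0 and 0.05 FPKM in HCC1937 and at 0.22 and 0.19 FPKM in THP-1. Of 8 T and natural killer cell markers, 0 reached 1 FPKM in HCC1937, where they summed to 0.41 FPKM untreated and 1.61 with DAC. In THP-1 2 did, CD4 and NKG7, while CD3E, CD3G and CD8A were at 0 in both libraries. The 3 B cell markers summed to 0.16 and 2.07 FPKM in HCC1937 and to 4.28 and 6.54 in THP-1. The 6 fibroblast markers summed to 3.28 and 9.28 FPKM in HCC1937 and to 1.16 and 4.49 in THP-1. The T, B and fibroblast sums were higher in the DAC library of each line, and their part in the ligand differences was not tested.

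Other inhibitory ligands and checkpoint genes had 1 of 17 kept called higher in HCC1937 and 0 lower, against 10.3% and 1.44% of all kept genes. Their median was 0.01, beside 0.19 for all kept genes. The higher one was HLA-G, a class I molecule that inhibits natural killer and myeloid cells. It went from 0.12 FPKM untreated to 28.08 with DAC, 234-fold (interval 90.1 to 852) on 4 and 927 reads, and its sequence is close to that of other class I genes, so the split of reads is uncertain. Here too only the DAC library reached 1 FPKM. LGALS1, galectin-1, stood at 1300.77 and 656.1 FPKM (log2 -0.99), NECTIN4 at 30.21 and 16.09 (log2 -0.87) and BTN3A1, a butyrophilin, at 6.86 and 3.37 (log2 -0.85). Under both scalings LGALS1, NECTIN4 and BTN3A1 were called lower. In THP-1, where 22 of the 27 listed genes had values, 0 of 14 kept were called. Of all kept genes there, 1.14% were called higher and 0.364% lower. The list median was 0.22, beside 0.07 for all kept genes. TDO2 and VSIG4 (0.7 and 1 FPKM) reached 1 FPKM only with DAC, so this median is no support for a gain. TDO2, an enzyme of tryptophan breakdown, had the largest difference there, at 0.78 and 2.09 FPKM (log2 0.80), then LGALS3, BTN2A2 and ENTPD1 at log2 0.41, 0.38 and 0.32. HLA-G in THP-1 was at 0.07 and 0.26 FPKM.

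Costimulatory ligands had 1 of 5 kept called higher and 0 lower in HCC1937, against 10.3% and 1.44% of all kept genes. CD40 and TNFSF15, 2 of the 5, reached 1 FPKM only with DAC, so no median is given. CD40, a receptor of antigen-presenting cells, was listed at 0 in the untreated library and at 2.88 FPKM with DAC, at least 45.4-fold higher against the level of 3 reads in the untreated library. CD70, the ligand of CD27, stood at 35.15 and 66.17 FPKM (log2 0.89) and TNFSF15 at 0.78 and 2.21 (log2 0.85). CD58 was at 7.1 and 8.11 FPKM (log2 0.17). In THP-1 0 of 5 were called, against 1.14% higher and 0.364% lower of all kept genes. The median was 0.05, beside 0.07 for all kept genes. CD58 was at 7.67 and 12.66 FPKM there (log2 0.66), CD40 at 6.56 and 10.43 (log2 0.60) and CD70 at 326.86 and 273.77 (log2 -0.25).

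Of the interferon gamma and JAK-STAT genes, 1 of 17 kept was called higher in HCC1937 and 0 lower, again against 10.3% and 1.44% of all kept genes. Their median was 0.01, beside 0.19 over all kept genes. That gene was IRF7, a factor of the interferon response, at 0.12 FPKM untreated and 17.25 with DAC, which reached 1 FPKM only with DAC. SOCS1, a feedback inhibitor of JAK signalling, stood at 2.47 and 4.49 FPKM (log2 0.66). IRF1, the factor best known for activating CD274, was at 19.67 and 10.7 FPKM (log2 -0.82) and was called lower under both scalings. Whether any of these genes had a part in the CD274 difference was not tested. In THP-1 0 of 18 were called, against 1.14% higher and 0.364% lower of all kept genes. Their median was 0.14, beside 0.07 over all kept genes. Differences lay above 0 for 16 of 18, and for 65.0% of all kept genes. IRF9 had the largest, at 7.62 and 13.24 FPKM (log2 0.72), and the other named genes were IRF7 at 8.12 and 12.55 (log2 0.57) and STAT2 at 13.21 and 17.27 (log2 0.36). CD274 in THP-1 was at 0.39 and 0.54 FPKM, as given above, on few reads and with an interval of the ratio that includes 1.

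Regulators of PD-L1 protein and of CD47 modification had 0 of 16 kept called in HCC1937 (median -0.13) and 0 of 14 in THP-1 (median 0.07). Of all kept genes, 10.3% were called higher and 1.44% lower in HCC1937 (median 0.19), and 1.14% and 0.364% in THP-1 (median 0.07). CALR, a chaperone that signals for uptake when it reaches the cell surface, stood at 998.87 and 540.14 FPKM in HCC1937 (log2 -0.89) and was called lower under both scalings. QPCTL, which modifies the end of CD47 that SIRPA binds, was at 19.47 and 11.36 FPKM (log2 -0.73), called lower under upper-quartile scaling and, with CALR and CDK5, at 1.5-fold. CDK5 and GSK3B followed at log2 -0.62 and -0.48. In THP-1 the related QPCT stood at 1.39 and 3.68 FPKM (log2 0.97, just short of 2-fold), LRP1 at 1.74 and 2.4 (log2 0.31), QPCTL at 19.98 and 16.36 (log2 -0.27) and STUB1 at 67.69 and 57.1 (log2 -0.24). CMTM6, which keeps PD-L1 at the cell surface, was at 11.55 and 13.35 FPKM in HCC1937 and 14.11 and 16.01 in THP-1.

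**Figure D4:**
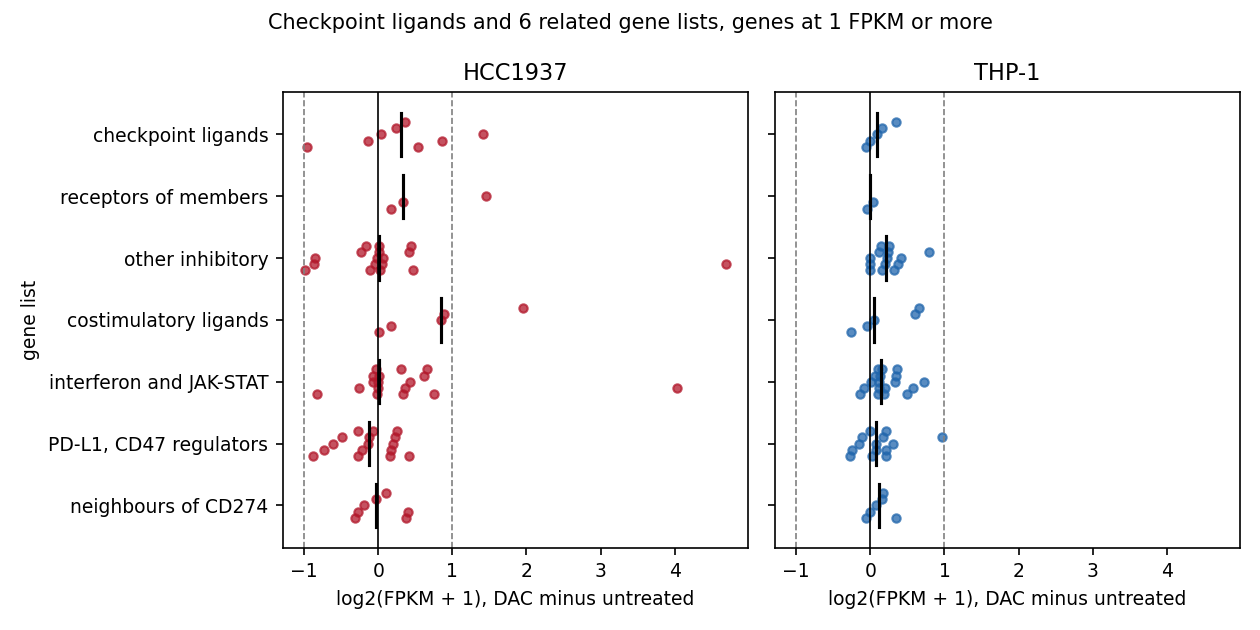
Difference of log2(FPKM + 1), DAC minus untreated, of each kept gene (points, spread vertically for visibility) of the ligands and of 6 related lists in each line; black bars are medians of the kept genes, which include genes that reached 1 FPKM only with DAC, and dashed lines 2-fold. In HCC1937 HLA-G (4.70) and IRF7 (4.03) lie far to the right of all others, and in THP-1 no point passes 2-fold.

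Genes whose 4 values were most like those of a ligand were found by Euclidean distance between log2(FPKM + 1) values, each centred on its own mean, over 4 libraries and 12562 protein-coding genes. For VTCN1 these were SH2D5 (distance 0.106), LY6G6C (0.115) and EPPK1 (0.137). For CD276 they were NFKBIZ (0.0839), PIGU (0.134) and ECSIT (0.144). CD47 lay nearest to ADAMTS9 (0.0458), GALNT12 (0.0554) and RBSN (0.0629), and TNFRSF14 to SRSF10 (0.0284), ARL14EP (0.0383) and ATP6V1B1 (0.0383). With 4 libraries many genes lie this near.

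**Figure D5:**
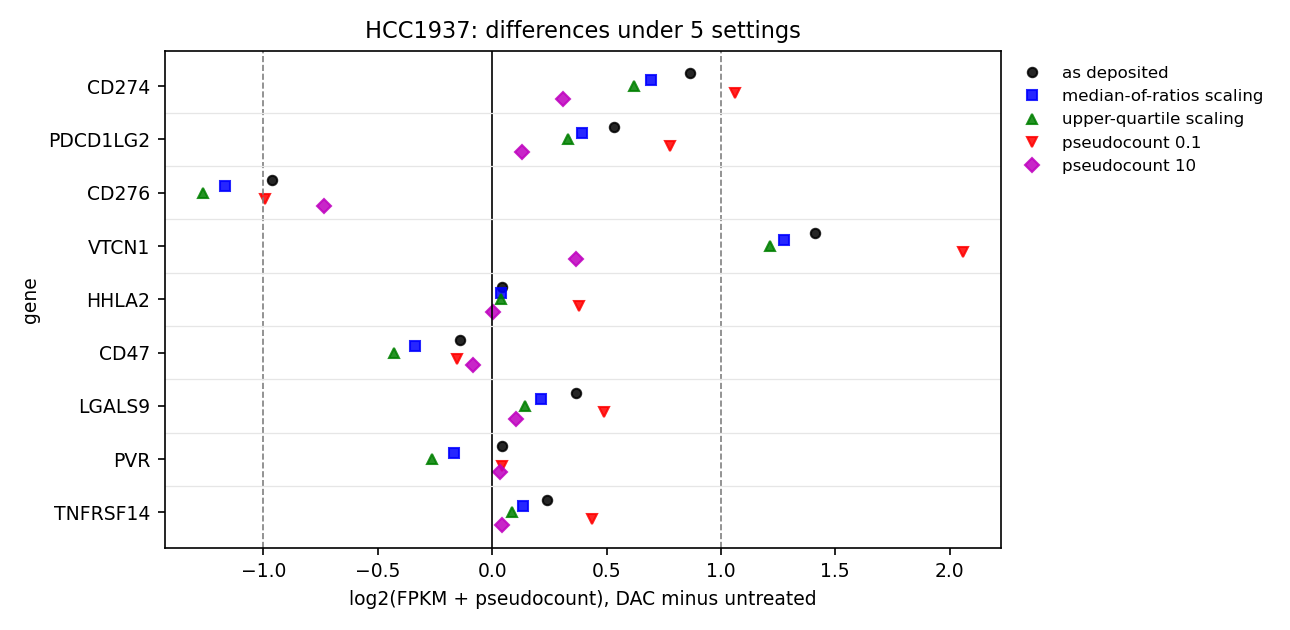
Difference of the log2 value, DAC minus untreated, of each ligand gene in HCC1937 as deposited, under 2 scalings of the libraries and with 2 other pseudocounts; dashed lines mark 2-fold. CD276 passes 2-fold under both scalings (-1.17 and -1.26), CD274 with a pseudocount of 0.1 (1.06), and PVR changes sign under both scalings.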

How the data were processed

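The 4 libraries were made from total RNA with an mRNA kit, per the labels' protocols. The submitters' processing notes list FastQC, cutadapt, STAR, HTSeq and the build hg38; versions, annotation and strand use are not given in the sources used here. No unit is named in the deposited table. The values are treated as FPKM made by the authors, because for genes with 50 to 250 bp of exon, value times GENCODE 29 length falls on whole multiples of 1 step, within 0.1 reads, in 91.7% to 93.9% of genes. That step gave the depth and the estimated reads. For THP-1, 37039 of 60612 lines are empty. Symbols listed repeatedly (76 symbols, 1079 lines) were dropped, which leaves 59533 genes, 23440 with THP-1 values.

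Genes with at least 1 FPKM in 1 library of a pair were kept, and called at 2-fold on log2(FPKM + 1), with no rescaling. The design assumed no unit, and no test across libraries was run with 1 library per group. Intervals are exact (Clopper-Pearson for ratios, Poisson for levels) at 95%. Alternatives tried were scaling within each pair (upper quartile or median of ratios), pseudocounts of 0.1 and 10, no filter or 5 FPKM, and 1.5-fold or 3-fold. A plain ratio and the counting interval as a rule were chosen after seeing the data. The procedure was tested on simulated data. Software was Python 3.11.15 with numpy 2.4.6, pandas 2.3.3, matplotlib 3.10.9 and scipy 1.17.1. The ligands and lists were chosen with earlier results of these data known. Named were all 9 ligands, up to 4 genes per list and line with the largest difference, any called, and the 3 genes nearest in pattern to the 2 ligands with the largest difference in each line. JAK2, PDCD1, SIRPA, CMTM6, the LGALS9 copies and a few genes at low values were named beyond that rule, after their values were seen. Some genes are not reported here, the expressed mutant's among them.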

Additional observations from a re-analysis of the deposited data

Results flagged for a closer look

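CD47 and LGALS9 had differences of opposite sign in the 2 lines, which was not tested, since each line has 1 library per group and received its own dose and time of DAC. The log2 difference of CD47 was -0.14 in HCC1937 and 0.35 in THP-1, and that of LGALS9 was 0.37 in HCC1937 and -0.0049 in THP-1. The THP-1 sign of CD47 held under the 2 scalings. Both scalings lower every ratio, so they could not change its HCC1937 sign, and a pseudocount cannot change a sign. The LGALS9 value in THP-1 ranged from -0.08 to -0.0045 over the 2 scalings and both other pseudocounts, and its counting interval includes a ratio of 1.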

How the results depend on the processing

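Direction was kept for every ligand in both lines under the 2 scalings, except PVR in HCC1937, which turned lower under both. Both scalings lower every DAC to untreated ratio, so only ligands that stood higher could change direction. A pseudocount cannot change a direction. Only VTCN1 in HCC1937 had a call that could reverse, and at a ratio of 4.51 these settings could not turn it. Of 72 ligand values under the 2 scalings and 2 other pseudocounts, 45 stayed within their counting interval on log2(FPKM + 1). Values with another pseudocount are on another scale than that interval, so this count is no measure of stability. In HCC1937, 2 ligands (CD274 and VTCN1) were higher at 1.5-fold, with a pseudocount of 0.1 and as a plain ratio, and 0 were at 3-fold, with a pseudocount of 10 or with at least 5 FPKM. CD276 was the 1 ligand lower at 1.5-fold and under either scaling. In THP-1, 0 ligands were called under every alternative run. The list genes higher in HCC1937 numbered 4 as deposited, 9 at 1.5-fold, and 2 with at least 5 FPKM or a pseudocount of 10. Lower list genes numbered 0 as deposited, 7 at 1.5-fold, 1 with a pseudocount of 0.1, 5 under median-of-ratios and 6 under upper-quartile scaling. In THP-1, 5 list genes were higher at 1.5-fold and 2 with a pseudocount of 0.1. All genes higher in HCC1937 numbered 1452 as deposited, 3084 at 1.5-fold, 529 at 3-fold, 550 with at least 5 FPKM, and 2323 and 131 with pseudocounts of 0.1 and 10. Lower ones numbered 202, and 831, 30, 108, 383 and 31 under those settings, with 365 by median of ratios and 487 by upper quartile. In THP-1 the higher numbered 138, and 398, 30, 42, 297 and 3, and the lower 44, and 121, 9, 4, 74 and 0. The causes were not tested. No paired analysis was possible because each group has 1 library. Depth limits VTCN1 in THP-1 and HHLA2 in both lines, and CD274 and PDCD1LG2 in THP-1.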
